A study of Rattus norvegicus with 14 samples.

Results

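The regions described here are 110 stretches of the rat genome, each 1000 bp long, in which mean CpG methylation at the margin of an oesophageal wound 1 day after surgery lay 15 percentage points or more from that of unoperated oesophagus, while the tissue that had formed in the graft area at 1 week lay less than 5 points from it. The genome (mRatBN7.2, chromosomes 1 to 20) was divided into tiles from position 1. A tile counted where at least 3 CpG cytosines had 10 or more reads in at least 3 libraries of every group, which left 14380 tiles. The 110 tiles are 0.765% of these, and 100 of them were higher and 10 lower at day 1. The tiles were chosen by the measured group differences themselves, so those differences are given as a description and carry no test.

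Oesophageal defects of male rats aged 8 to 9 weeks had been repaired with acellular silk fibroin grafts, per the series title. Day 1 samples (5 libraries) were punch biopsies of host oesophagus from within 2 mm of the defect's edge, taken 1 day after the operation. Week 1 samples (4 libraries of 5 samples, the other one not analysed here) were new tissue from the area of the graft. Non-surgical control samples, called NSC (4 libraries), were oesophagus in its full thickness from rats that had no operation. Day 1 and week 1 thus differ in site and in time together, and these cannot be told apart. No sham operation was among the samples used here, and the labels do not say whether each sample is a separate animal.

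In mammals DNA methylation is found mainly on cytosines followed by guanine (CpG), where it is copied to the new strand after replication. CpG-rich promoters are mostly unmethylated, whereas the CpG-poor remainder of the genome is mostly methylated, and intermediate levels in bulk tissue can arise where cell types differ at a site. Reduced representation bisulfite sequencing cuts the DNA with MspI, which recognises CCGG, and reads methylation as cytosines that survive bisulfite conversion. In bulk tissue a shift in the mix of cell types and a change of methylation within cells cannot be told apart. RNA was not measured, so the labelled tissue could not be checked against marker genes.

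Reads summed over listed cytosines ran from 9676493 (day 1 library 2) to 49782600 (NSC library 1). Day 1 library 2 stood apart in depth: it had a value in 2591 of the 14380 tiles and in 16 of the 110. All other libraries had a value in 68 of the 110 tiles. A tile without a value in a library is averaged over the other libraries of that group, and n below is the number with a value.

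Return to within 5 points of NSC was uncommon among tiles that had moved at day 1. Of 2520 tiles that were 15 points or more from NSC at day 1, 2022 were higher and 498 lower. At week 1, 2395 of the 2520 were still 5 points or more away on the same side. These are called lasting below, even where their difference had shrunk. Another 15 were that far away on the other side, and 110, or 4.37% of the 2520, were within 5 points. By direction, 4.95% of the higher and 2.01% of the lower tiles were back within the limit. The 10 lower tiles behind the last share became 20 without day 1 library 1, 18 without day 1 library 4 or 5, week 1 library 4 or NSC library 1 or 3, and 16 without week 1 library 3, so the order of the directions rests on few tiles. Week 1 differences among the 2022 higher tiles had a median of 19.3 points, and the number of tiles grew with distance from NSC, from 100 within 5 points to 227 at 5 to 10 points, 344 at 10 to 15 points and 404 at 15 to 20 points. Over all 14380 tiles 56.9% were within 5 points of NSC at week 1. The reverse pattern, 15 points or more at week 1 and under 5 at day 1, was met by 83 tiles.

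**Figure D1:**
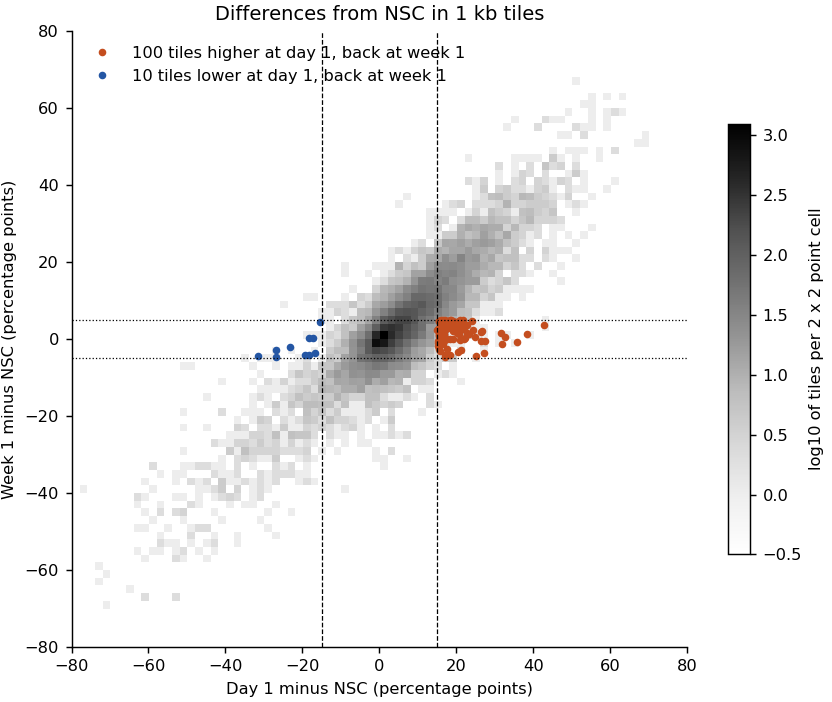
Difference of mean methylation from NSC in each of the 14380 tiles, at day 1 (x axis) and at week 1 (y axis), in percentage points. Grey cells give the log10 number of tiles, coloured points are the 100 tiles higher and 10 tiles lower at day 1 that were back at week 1, and dashed and dotted lines mark the limits of 15 and 5 points; the 110 tiles lie at the edge of a cloud in which most tiles that moved at day 1 were on the same side at week 1.

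Both limits cut through that cloud. The tile just inside the day 1 limit (chr20:8895001-8896000) differed from NSC by 15.1 points at day 1 and 2.39 at week 1, and the one just outside it (chr3:154577001-154578000) by 14.99 and −4.78 points. Just inside the week 1 limit lay a tile (chr7:52120001-52121000) at 21.9 points at day 1 and 4.93 at week 1, and just outside it one (chr19:22355001-22356000) at 17.7 and 5.03 points.

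Most of the 110 tiles had intermediate methylation in unoperated oesophagus. In the 100 higher tiles the median over tiles of the group mean was 82.9% at day 1, 65.4% at week 1 and 63.9% in NSC. In the 10 lower tiles it was 46.8% at day 1, 71.4% at week 1 and 75.9% in NSC. An NSC level of 50 to 80% was found in 78 of the 110 tiles (70.9%), in 60.8% of the 2395 lasting tiles and in 26.8% of all tiles. An NSC level of 80% or more was found in 5 of the 110 tiles and in 44.0% of all tiles. The NSC mean is part of the choice, and a tile near 100% cannot rise by 15 points, so these shares are fixed in part by the limits.

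The differences were moderate. The median day 1 difference of the higher tiles was 18.4 points, against 2.37 points at week 1, and for the lower tiles −18.8 against −3.21 points. Of the 100 higher tiles 34 were at 20 points or more and 12 at 25 points or more. Over all 14380 tiles the medians were 2.91 points at day 1 and 1.39 at week 1, so day 1 libraries were above NSC in general and the excess of higher over lower tiles must be read beside that shift. Every library was then centred on its own median over tiles. Day 1 minus NSC fell by 9.10 points and week 1 minus NSC by 5.89 points (medians over tiles). The medians over all tiles became −5.92 points at day 1 and −4.49 at week 1, a larger shift on the other side of NSC. With centring the same limits chose 84 tiles, 26 higher and 58 lower, which must be read beside that shift too. The share of higher tiles was 31.0% with centring and 90.9% without, and 7 tiles were chosen both ways. The 100 higher tiles all stayed above NSC at day 1 after centring, with a median of 9.32 points. Their median at week 1 was then −3.52 points. Centring takes a constant from each library, and in every tile this moved day 1 minus NSC by less than the day 1 limit. The count and both medians thus follow from the choice of tiles and that shift, so nothing is read from them.

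Each library was placed against the NSC mean, tile by tile. In the higher tiles day 1 libraries 1, 3, 4 and 5 had medians of 20.8, 17.7, 21 and 17.5 points above it, and library 2 had 21.7 points over its 14 tiles. The week 1 libraries were spread more widely, at 3.96, 2.45, −5.89 and 7.57 points for libraries 1 to 4. Library 3 was below the NSC mean in 56 of its 91 higher tiles, and library 4 above it in 69 of 97. In the 10 lower tiles the week 1 medians ran from −3.99 to 1.63 points. The near-zero mean at week 1 in the higher tiles was therefore an average over libraries that lay on both sides of NSC. Week 1 library 3 also had the lowest of the week 1 medians over all tiles, at 0.625 points.

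**Figure D2:**
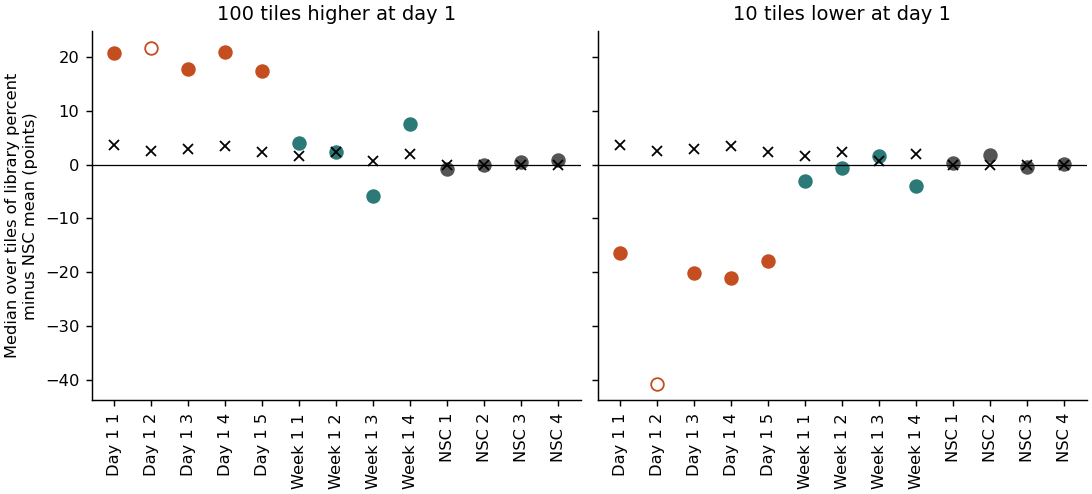
Median over tiles of each library's methylation minus the NSC mean, in percentage points, for the 100 tiles higher (left) and the 10 lower (right) at day 1; libraries are on the x axis, crosses give the same median over all tiles, and open circles rest on few tiles (14 and 2 tiles for day 1 library 2). Day 1 libraries lie together near 20 points in the left panel, whereas week 1 libraries run from −5.89 to 7.57 points.

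The spread among week 1 libraries was wide in these tiles. Its SD had a median of 12.2 points over the 110 tiles, against 7.61 in the lasting tiles and 4.34 in all tiles. Among NSC libraries the median SD was 7.12 points in the 110 tiles and 7.59 in the lasting tiles. The week 1 values helped to choose the tiles, so their SD and the interval below depend in part on the limits and carry no test. The 95% interval of week 1 minus NSC (limma's moderated standard errors on tile percent) reached a median of 16.6 points to either side in the 110 tiles and 7.60 points in all tiles. It lay inside ±5 points in 0 of the 110 tiles, inside ±10 points in 5 and inside ±15 points in 34. In 42 tiles it reached as far as the tile's own day 1 difference. A week 1 mean within 5 points of NSC thus did not bound the difference to 5 points in any of the 110 tiles.

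**Figure D3:**
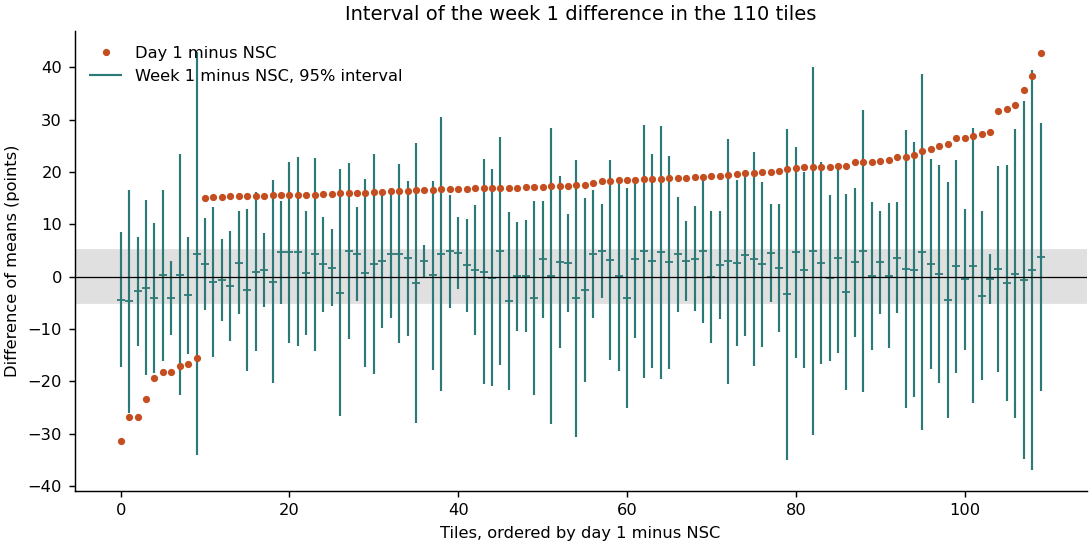
The 110 tiles in order of their day 1 difference from NSC (points), with the 95% interval of the week 1 difference (vertical lines, mean as a dash), in percentage points. The grey band marks ±5 points, and none of the 110 intervals lies inside it.

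Tests over all tiles show how the limits relate to a call. With edgeR's quasi-likelihood test on methylated and unmethylated counts, at a Benjamini-Hochberg adjusted p below 0.05 over all tiles and 10 points, 15.1% of tiles were called at day 1 against NSC (12.3% higher, 2.82% lower). Among the 110 tiles 43 were called, 38 higher and 5 lower, and 87 were below an unadjusted p of 0.05, against 32.4% of all tiles. The 43 became 24 to 50 with each library left out, against 10.1 to 15.7% of all tiles. It was 28 or fewer without day 1 library 1 or 4 or any of the NSC libraries. By limma on centred percent 16 of the 110 were called, against 18.9% of all tiles. That contrast chose the tiles, so nothing is read from this count. At week 1 against NSC 9.09% of all tiles were called and 0 of the 110. At an unadjusted p below 0.05 these shares were 23.5% of all tiles and 0 of the 110, and by limma 11.7% of all tiles and 0 of the 110, in a contrast that the limit on the week 1 mean fixes. Between week 1 and day 1, 2 tiles of 14380 were called (0.0139%), 1 higher (0.00695%) and 1 lower (0.00695%) at week 1, and 0 of the 110. In that contrast 61 of the 110 were below an unadjusted p of 0.05, against 8.39% of all tiles, and limma called 2 of the 110 (chr4:160928001-160929000 and chr15:21653001-21654000), against 4 of all tiles (0.0278%). This contrast is fixed in part by the limits too.

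Single libraries did not overlap in a part of the tiles. The counts that follow are fixed in part by the limits on the group means, so nothing is read from them. Day 1 was fully separated from NSC in 66 of the 110 tiles (24.9% of all tiles), from week 1 in 33 (5.7%) and from both in 28 (2.64%). Week 1 was fully separated from NSC in 1 of the 110 tiles (19.9% of all tiles). Of these 28, 12 had a value in at least 4 libraries of every group, 10 higher and 2 lower at day 1, and the 8 higher ones with the largest difference and both lower ones are described below as tiles A to J.

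Tile A (chr5:166184001-166185000, 3 cytosines) had 56.3, 67.2, 64.8 and 50% in day 1 libraries 1, 3, 4 and 5, 44.9, 0, 38.5 and 34.5% in week 1 libraries 1 to 4, and 37.7, 28.1, 22.0 and 24.2% in NSC libraries 1 to 4. All day 1 libraries were above all others, and 3 of the 4 week 1 libraries were above the NSC mean of 28.0%. The week 1 mean of 29.5 ± 20.1% (SD, n = 4) rests on library 2, with 0 of 20 reads methylated. That count allows a level of up to 15% by counting error alone. With 10 reads needed at each cytosine, the 20 reads cannot cover all 3 cytosines of the tile. Tile A is also the one of the 10 with the largest rise at day 1, 31.6 points. As a mean over cytosines, in place of summed reads, its week 1 difference from NSC was 8.59 points. That is outside the limit of 5 points.

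Tile B (chr9:103345001-103346000, 3 cytosines) had 96.0, 85.3, 92.5 and 91.7% in day 1 libraries 1, 3, 4 and 5, 74.8, 76.7, 60.0 and 77.3% in week 1 libraries, and 65.9, 71.8, 59.2 and 77.4% in NSC libraries. Week 1 and NSC libraries were interleaved, and the lowest day 1 library was 85.3%. Group means were 91.4 ± 4.47% at day 1, 72.2 ± 8.19% at week 1 and 68.6 ± 7.82% in NSC (SD, n = 4 each). As a mean over cytosines the week 1 difference of tile B from NSC was 7.27 points, also outside the limit.

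Tile C (chr5:166378001-166379000, 5 cytosines) lies on the same chromosome, 194000 bp from tile A, and was low in unoperated oesophagus. It had 19.3, 60.0, 15.7 and 18.8% in day 1 libraries 1 to 4, 9.68, 6.06, 12.2 and 7.60% in week 1 libraries and 8.91, 1.89, 8.2 and 11.5% in NSC libraries. Its difference of 20.8 points rests on day 1 library 2, with 6 of 10 reads methylated (exact 95% interval 26.2 to 87.8%), and was 10.3 points without that library. As a mean over cytosines it was 5.60 points, and 2 of its 5 cytosines were higher at day 1.

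Tiles D to H had levels of 61.1 to 77.5% in NSC and 81.1 to 94.4% at day 1. Tile D (chr10:17403001-17404000) averaged 81.2 ± 6.54% at day 1, 65.6 ± 3.71% at week 1 and 61.1 ± 7.66% in NSC (SD, n = 4 each). Tile E (chr4:151191001-151192000) had 87.2, 85.1, 80.9 and 82.8% in day 1 libraries 1, 3, 4 and 5, 75.9, 64.8, 54.4 and 73.0% in week 1 libraries and 57.1, 64.5, 64.8 and 72.9% in NSC libraries. Each library of tile E rested on 64 to 220 reads, and all 4 of its cytosines were higher at day 1. With cytosines of 5 or more reads included, its day 1 difference was 10.9 points in place of 19.2. Tile F (chr3:1560001-1561000) averaged 81.1 ± 3.25% at day 1, 67.2 ± 7.33% at week 1 and 63.9 ± 10.2% in NSC (SD, n = 4 each).

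Tile G (chr15:101433001-101434000) was the highest of the 10 at day 1. It had 92.6, 97.6, 95.1 and 92.2% in day 1 libraries 1, 3, 4 and 5, 86.4, 82.4, 60.0 and 86.6% in week 1 libraries, and 81.9, 79.9, 80 and 68.4% in NSC libraries. Here 3 week 1 libraries were above every NSC library, and library 3 was below every one. Tile H (chr1:254053001-254054000) averaged 81.7 ± 5.25% at day 1, 67.0 ± 7.35% at week 1 and 64.9 ± 4.67% in NSC (SD, n = 4 each).

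Tiles I and J were lower at day 1. Tile I (chr14:8968001-8969000, 3 cytosines) had 74.2, 73.8, 67.3 and 70.4% in day 1 libraries 1, 3, 4 and 5, 84.7, 91.7, 88.9 and 77.1% in week 1 libraries, and 89.6, 93.2, 84.5 and 91.4% in NSC libraries. Tile J (chr7:68514001-68515000, 5 cytosines, all lower at day 1) had 36.6, 36.8, 39.1 and 51.1% in day 1 libraries 1, 3, 4 and 5, 58.1, 73.4, 56.6 and 71.4% in week 1 libraries, and 69.5, 61.2, 70.0 and 70.1% in NSC libraries. The highest day 1 library of tile J was below every week 1 and NSC library. As a mean over cytosines the week 1 difference of tile I from NSC was −6.23 points, outside the limit of 5 points. By that measure tiles C to H and tile J were within the limit at week 1, unlike tiles A, B and I. With every library centred on its median, the day 1 difference was 22.5 points in tile A. It was then 7.73 to 13.7 points in tiles B to H, under the day 1 limit of 15 points. In tiles I and J it was −27.4 and −35.9 points. Of tiles A to J, edgeR did not call C and F at day 1 against NSC.

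**Figure D4:**
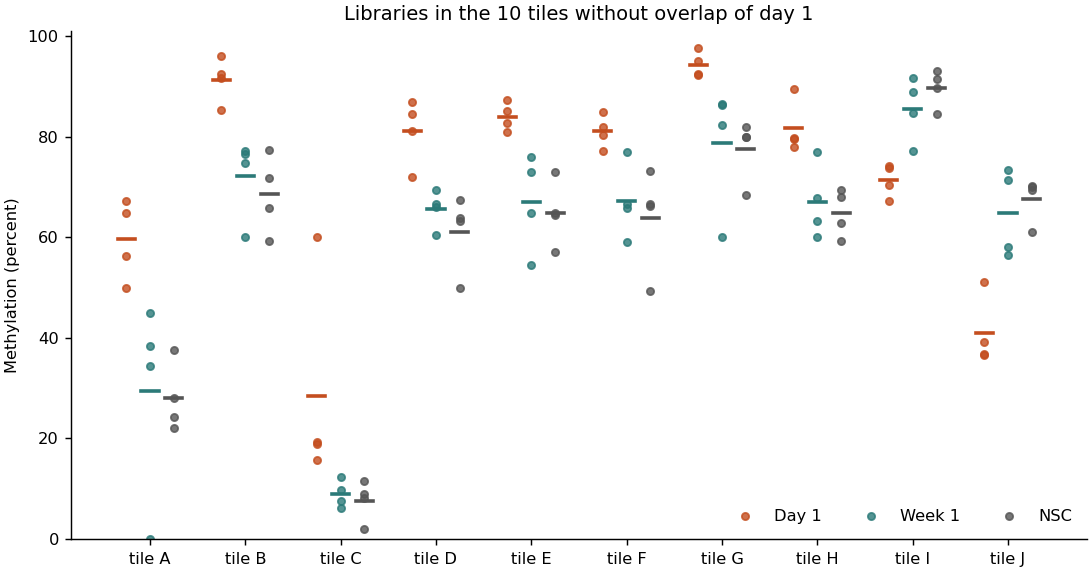
Methylation in percent of each library (points) and group means (bars) in tiles A to J, day 1 left, week 1 in the middle and NSC right of each tile. In every tile the day 1 points lie beyond all points of the other groups, and single libraries set some means, such as week 1 library 2 at 0% in tile A and day 1 library 2 at 60.0% in tile C.

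The tiles that follow were chosen after their values were seen, and in some of them the libraries of a group lay far apart. The largest rise, 42.7 points, was at chr1:164043001-164044000, where day 1 libraries 1, 3, 4 and 5 had 63.9, 45.6, 70.0 and 84.9%, week 1 libraries 1, 3 and 4 had 21.4, 8.79 and 51.1%, and NSC libraries had 16.3, 28.8, 32.8 and 15.7%. Week 1 library 4 overlapped the day 1 libraries there. At chr17:27326001-27327000, with a rise of 38.4 points, week 1 libraries 1, 2 and 4 had 55.6, 13.3 and 80.8%, and NSC libraries had 68.0, 47.9, 58.0 and 20.5%. The means of 49.9 ± 34.1% at week 1 (n = 3) and 48.6 ± 20.5% in NSC (SD, n = 4) were close, while the week 1 libraries ran both below the lowest and above the highest NSC library.

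The most extreme fall, 31.4 points, was at chr8:115922001-115923000: day 1 libraries 1, 3, 4 and 5 had 50.9, 55.2, 31.3 and 39.8%, week 1 libraries 1, 2 and 4 had 72.7, 72.7 and 68.5%, and NSC libraries had 67.2, 78.4, 83.3 and 73.8%. In contrast chr20:12501001-12502000 entered the lower tiles through day 1 library 3 alone. That library had 0 of 14 reads methylated, which allows up to 21.4%, while the day 1 libraries 1, 4 and 5 had 92.9, 84.9 and 88.3%, all above the NSC libraries at 79.7, 83.2, 83.4 and 81.7%.

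With each of the 13 libraries left out in turn, 100 to 171 tiles were chosen, of which 64 to 104 were among the 110. The highest count, 171, came without week 1 library 4. Of the 110 tiles 4 were chosen whichever library was left out, all of them higher at day 1. In chr15:21653001-21654000 the means were 84.2 ± 1.78% at day 1, 70.7 ± 2.08% at week 1 and 67.7 ± 1.96% in NSC (SD, n = 4 each), and its 6 cytosines were all higher at day 1. In chr4:160928001-160929000 they were 85.4 ± 2.08% at day 1 (n = 3), 57.4 ± 2.25% at week 1 (n = 3) and 57.8 ± 3.40% in NSC (SD, n = 4).

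The others of the 4 were chr5:146083001-146084000, with 79.8 ± 6.17% at day 1 (n = 4), 63.9 ± 4.79% at week 1 (n = 3) and 60.9 ± 1.89% in NSC (SD, n = 4), and chr6:27808001-27809000, with 62.0 ± 11.3% at day 1 (n = 3), 39.8 ± 9.22% at week 1 (n = 4) and 39.6 ± 7.34% in NSC (SD, n = 4). By the mean over cytosines the day 1 difference of chr5:146083001-146084000 was 11 points in place of 18.9, and edgeR did not call it or chr6:27808001-27809000 at day 1. Day 1 and week 1 libraries overlapped in chr6:27808001-27809000 and in none of the other 3.

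Some cytosines in the tiles had not entered the choice, because they had too few reads in too many libraries, and these give values that did not choose the tiles, though they come from the same libraries and often from the same reads. In 80 of the 100 higher tiles 432 such cytosines could be measured, each in at least 2 libraries of every group with 5 or more reads. Their median difference from NSC was 13.5 points at day 1 and 5.69 points at week 1. At the cytosines that had been used in the same 80 tiles it was 18.8 and 1.80 points. In 71 of the 80 tiles the left-out cytosines were above NSC at day 1, and in 58 at week 1. Among 1589 lasting higher tiles this held for 1434 at day 1 and 1366 at week 1. Over all 12099 tiles with such cytosines, 8106 at day 1 and 7500 at week 1 were on the side of their tile. In the 80 tiles the difference at day 1 was smaller than at the used cytosines, and that at week 1 was larger.

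Left-out cytosines of the lasting higher tiles were 17.1 points above NSC at day 1 and 14.3 points at week 1, and those of all tiles 2.93 and 1.44 points. In the higher tiles that returned, left-out cytosines over 300 bp from any used one (23 tiles) had a median of 15.4 points at day 1 and 4.17 points at week 1. At that distance lasting higher tiles had 8.6 points at day 1 and 6.5 at week 1, and all tiles 1.59 and 0.568 points. In 9 lower tiles the left-out cytosines were −9.05 points from NSC at day 1, with 6 of the 9 tiles below NSC, and 1.80 points at week 1. Over 300 bp from any used cytosine, 3 lower tiles had a median of 1.33 points at day 1, on the other side of NSC from their tiles, and 4.24 points at week 1. No test was made of these values.

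**Figure D5:**
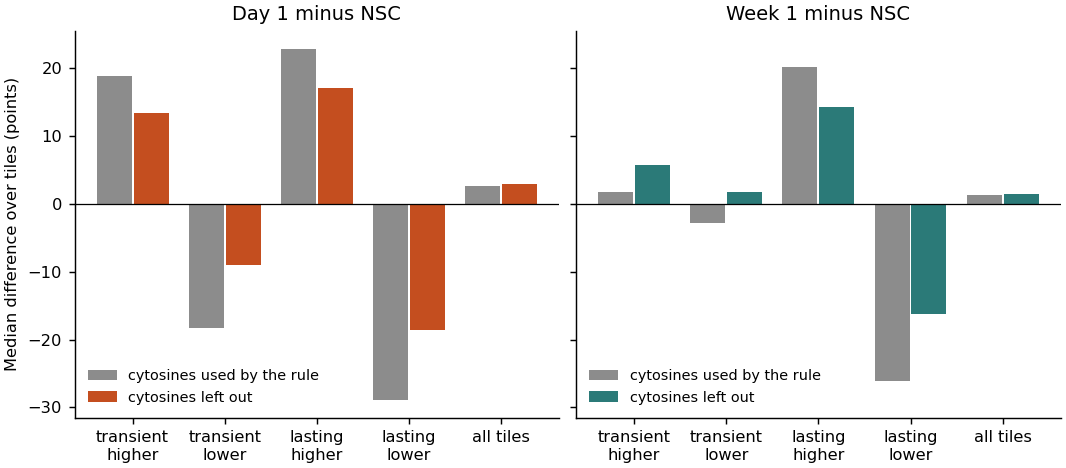
Median over tiles of the difference from NSC, day 1 left and week 1 right, at cytosines the choice used (grey) and at cytosines it left out (coloured), in percentage points. Tiles that were back at week 1 are called transient and those that kept their difference lasting; left-out cytosines of the transient higher tiles lie at 13.5 points at day 1 and 5.69 points at week 1.

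Within the tiles the cytosines mostly moved together. Of 431 cytosines used, 392 differed from NSC at day 1 in the direction of their tile, and in 88 tiles all did. Neighbouring CpGs are often covered by the same reads, so these are not separate observations. The same cytosines set the direction of their tile, so these counts are fixed in part by the choice and nothing is read from them. By the mean over cytosines in place of summed counts, 63 of the 110 tiles were still within both limits. The smallest permitted number of cytosines, 3, was found in 62 of the 110 tiles (56.4%, against 40.1% of all tiles).

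The tiles were scattered over the genome. Chromosome 1 held 14 and chromosome 5 held 12, and chromosomes 11 and 19, with 375 and 486 tiles of the 14380, held none. There were 4 pairs that lay 46000 to 194000 bp apart, among them tiles A and C, and in the pair at tile J the neighbour, 140000 bp away at chr7:68654001-68655000, was higher at day 1 by 19 points. Tiles 1 to 5 kb away from a higher tile, 20 in all, had a median difference of 5.04 points at day 1 and 1.83 at week 1, against 2.91 and 1.39 points in all tiles; no test was made of these values.

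Promoters were located by sequence. RefSeq promoter sequences (GRCr8, 250 bp before to 50 bp after each start) were placed in the coordinates of the files where the spacing of their CpGs matched that of the listed cytosines, which placed 6255 of 32007 promoters uniquely. Of these 98.5% lay in the gene order of RefSeq. Ends of a placed window beyond the matched cytosines are extrapolated, and gene bodies, exons and CpG islands were not examined. Of the 110 tiles 3 had a placed start within 1 kb (2.73%, against 6.71% of all tiles) and 15 within 20 kb (13.6%, against 19.7%). A start was placed within 5 kb of 7 tiles.

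The sequences below are the windows of the 2 genes whose start lies inside one of these tiles, Acot12 and Lrrc3, and of Alkbh2, whose start is the nearest of those outside. The Lrrc3 window holds 1 of the 6 cytosines used in its tile, and the Alkbh2 window none. Capitals mark CpGs of which at least 1 cytosine was listed in a file; the 4 cytosines of the Acot12 tile that were used lie at the first 4 of them, −203 to −184 from the start. Windows are given on the strand of the gene.
Acot12, chr2:22986617-22986916, plus strand: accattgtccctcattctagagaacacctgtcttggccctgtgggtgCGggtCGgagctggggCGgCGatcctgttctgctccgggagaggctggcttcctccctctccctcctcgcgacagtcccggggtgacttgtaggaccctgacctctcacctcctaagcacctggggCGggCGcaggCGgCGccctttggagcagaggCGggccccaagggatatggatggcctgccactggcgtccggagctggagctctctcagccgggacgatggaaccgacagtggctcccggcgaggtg
Lrrc3, chr20:10759508-10759807, plus strand: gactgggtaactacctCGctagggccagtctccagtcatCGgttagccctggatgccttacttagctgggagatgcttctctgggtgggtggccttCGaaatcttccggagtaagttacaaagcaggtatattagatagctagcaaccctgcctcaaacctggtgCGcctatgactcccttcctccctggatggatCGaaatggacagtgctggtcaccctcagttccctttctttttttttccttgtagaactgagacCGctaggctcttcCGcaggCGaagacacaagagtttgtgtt
Alkbh2, chr12:42496044-42496343, plus strand: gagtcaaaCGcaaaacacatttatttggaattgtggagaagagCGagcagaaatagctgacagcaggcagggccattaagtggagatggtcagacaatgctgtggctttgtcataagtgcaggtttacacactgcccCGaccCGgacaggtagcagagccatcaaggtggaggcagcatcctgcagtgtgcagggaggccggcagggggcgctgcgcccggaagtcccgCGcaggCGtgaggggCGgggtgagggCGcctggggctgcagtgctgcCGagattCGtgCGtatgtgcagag

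Acot12 encodes a cytosolic acyl-CoA thioesterase that hydrolyses acetyl-CoA. Its tile (chr2:22986001-22987000) had 45.3, 43.8 and 47.9% in day 1 libraries 1, 3 and 4, 11.4, 12.5 and 39.6% in week 1 libraries 1, 3 and 4, and 3.26, 35.4, 22.1 and 16.1% in NSC libraries. Day 1 was above all others, and week 1 library 4 was above every NSC library. Over the whole promoter window (18 cytosines) day 1 had 24.0 ± 15.8% (n = 5), week 1 17.1 ± 9.46% (n = 4) and NSC 16.2 ± 2.34% (SD, n = 4). Day 1 library 2, which has no value in the tile, was at 0% there on 55 reads. Over the libraries with a value in the tile the window had 33.4 ± 8.15% at day 1 (n = 3), 13 ± 6.04% at week 1 (n = 3) and 16.2 ± 2.34% in NSC (SD, n = 4), a day 1 difference of 17.3 points. With cytosines of 5 or more reads included, the tile's day 1 difference was 8.99 points in place of 26.4.

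Lrrc3 encodes a leucine-rich repeat protein. Its tile (chr20:10759001-10760000) used 6 cytosines, of which 2 were higher at day 1. It had 8.95, 46.7, 9.59 and 6.98% in day 1 libraries 1, 3, 4 and 5, 11.1, 0, 3.95 and 9.47% in week 1 libraries and 1.28, 2.70, 1.12 and 1.90% in NSC libraries. Library 3 had 7 of 15 reads methylated (exact 95% interval 21.3 to 73.4%), and without it the day 1 difference fell to 6.75 points, against 16.3 points with it. In the promoter window, of whose 16 cytosines the choice used 1, the levels were 57.3 ± 4.12% at day 1, 40.2 ± 17.8% at week 1 and 20.1 ± 6.23% in NSC (SD, n = 4 each). Week 1 libraries of the window had 35.1, 45.8, 18.8 and 61.0%, NSC libraries 25.8, 14.1, 25.1 and 15.4%, and day 1 libraries 1, 3, 4 and 5 had 62.6, 57.1, 56.8 and 52.5%. The window thus had its mean well above NSC at week 1, unlike the tile it lies in, and was not tested.

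Ung encodes uracil-DNA glycosylase, which removes uracil from DNA, and Alkbh2 a dioxygenase that reverses alkylation damage to DNA. The tile between their starts (chr12:42495001-42496000) had 82.8, 63.1 and 43.0% in day 1 libraries 1, 4 and 5, 30.0, 35.5 and 49.3% in week 1 libraries 1, 2 and 4, and 39.7, 28.6, 56.9 and 19.4% in NSC libraries. Its 3 cytosines lie upstream of both starts, at −493 to −462 bp from that of Alkbh2 and −2348 to −2317 bp from that of Ung. Day 1 library 5 overlapped the other groups. The Ung window was nearly free of methylation in each group (0.366 ± 0.437% at day 1, 0.431 ± 0.862% at week 1 and 0.159 ± 0.0890% in NSC; SD, n = 4 each), and so was that of Alkbh2, at 1.28 ± 1.38% at day 1 (n = 5), 0% at week 1 (n = 3) and 1.56 ± 1.61% in NSC (SD, n = 4).

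The remaining tiles with a start within 5 kb lay farther off. Tile E lies downstream of the start of Rasgef1a, a guanine nucleotide exchange factor, and tile C downstream of that of Vwa1, an extracellular matrix protein, whose window had a highest value of 1.03% in any library. A tile upstream of Hhipl1 (chr6:127222001-127223000) averaged 81 ± 15.5% at day 1 (n = 4), 58.5 ± 16.4% at week 1 (n = 3) and 62.6 ± 4.32% in NSC (SD, n = 4), while the Hhipl1 window itself had 88.2 ± 3.07% at day 1, 88.3 ± 8.90% at week 1 and 76.1 ± 13.8% in NSC (SD, n = 4 each). A tile upstream of Zkscan1, a zinc finger gene (chr12:16961001-16962000), averaged 86.0 ± 6.63% at day 1, 70.4 ± 21.4% at week 1 and 67.4 ± 7.43% in NSC (SD, n = 4 each), where week 1 library 3 had 4 of 10 reads methylated. With cytosines of 5 or more reads included, its day 1 difference was 8.00 points in place of 18.6. Of the tiles with a start within 5 kb, edgeR called that of Lrrc3 and tile E at day 1 against NSC. The tiles at Acot12, Ung and Alkbh2, Hhipl1 and Zkscan1 and tile C were not called. That contrast chose the tiles.

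Gene lists of oesophageal cell types, wound repair, signalling, imprinting and DNA methylation, 17 in all with 496 genes, had 100 genes with a placed promoter. Within 20 kb of these starts lay 103 tiles of the 14380, counted per list, and 0 of the 110. At the overall share of 0.765% that count holds no information on the lists, and most list genes could not be placed.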

How the data were processed

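Per the labels' protocols, MspI digests of genomic DNA were depleted of fragments above 300 bp and treated with bisulfite. Trim Galore, FastQC, Bismark 0.23.0, methylKit 1.14.2 and mRatBN7.2 are named in the submitters' processing notes, which give no roles. Each deposited file lists CpG cytosines with 5 or more reads, giving the methylated count, the total count and the percent (tested: their truncated ratio). Of 14 samples 13 were analysed; 1 of week 1 was not analysed here. PCR duplicates could not be recognised from counts, and a read is counted at each cytosine it covers, so intervals and limits cover counting error only.

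For each tile and library, methylated reads were summed over its cytosines with 10 or more reads and divided by all reads there. Group means gave the differences. Tests over all tiles used edgeR 4.0.16 (R 4.3.3): a library effect and, for methylated counts, a group effect, 1 dispersion for all tiles and Benjamini-Hochberg adjustment over 14380 tiles; limma 3.58.1 on percent gave intervals. Named tiles have a value in at least 4 libraries of each group and no overlap of day 1 with either other group, at most 8 per direction. The edgeR step was tested on simulated counts. Its simulated dispersion was too high in the first run and was lowered once to match the data, and a larger effect size was added. Promoter placement asked for 10 or more matched cytosines and a unique place. That method, the distances of 5 and 20 kb and the tiles described for size or stability were chosen after seeing the data, and the tiles and gene lists were chosen with earlier results of these data known. Replicates are numbered in accession order, and p-values measure the spread between samples, which may be technical. Python 3.11.15, numpy 2.4.6, pandas 2.3.3 and matplotlib 3.10.9 were used.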

Additional observations from a re-analysis of the deposited data

Results flagged for a closer look

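In 55 groups of 4 or 5 libraries, taken over the named tiles and the library medians, 8 single libraries stood apart from the rest of their group by the 95% limit of Dixon's test. Chance flags about 1 group in 20. In tile H (chr1:254053001-254054000) day 1 library 1 was at 89.5%, with its group's other libraries at 78 to 79.8%. In tile C (chr5:166378001-166379000) day 1 library 2 was at 60.0%, with the others at 15.7 to 19.3%. In tile J (chr7:68514001-68515000) NSC library 2 was at 61.2%, with the others at 69.5 to 70.1%. Week 1 library 3 was at 60.0% in tile B (chr9:103345001-103346000), with the others at 74.8 to 77.3%. In tile G (chr15:101433001-101434000) it was at 60.0% too, with the others at 82.4 to 86.6%, and NSC library 4 was at 68.4%, with the others at 79.9 to 81.9%. In the tile at Lrrc3 (chr20:10759001-10760000) day 1 library 3 was at 46.7%, with the others at 6.98 to 9.59%. The median over lower tiles was 9.09% in day 1 library 2, with the others at 41.2 to 49.2%, and rests on 2 tiles.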

How the results depend on the processing

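The number of tiles that met both limits, 110, was 969 with a minimum of 5 reads (44 of the 110 among them), 13 with 20 reads (9 of the 110), 3 with cytosines in all 13 libraries and 28 with at least 5 cytosines per tile. It was 38 and 430 at day 1 limits of 20 and 10 points, 61 and 369 at week 1 limits of 3 and 10 points, and 100 to 171 with each library left out. With 500 bp tiles, shifted tiles, unweighted percent, a coverage limit, 10 reads drawn, strands summed, means over cytosines (added after seeing the data) or centring it stayed within 1.5 times, at 84 to 161, yet shared 7 tiles with the 110 under centring, 64 when 10 reads were drawn and 75 with strands summed. Over all tiles, day 1 against NSC gave 2172 calls of 14380 (15.1%), and 477 of 2298 tiles with a value in every library (20.8%), 5779 of 64549 with 5 reads (8.95%) and 664 of 2866 with 20 reads (23.2%). Week 1 against NSC gave 1307 (9.09%), and 266 (11.6%), 3052 (4.73%) and 461 (16.1%) under those settings, 1973 by limma on centred percent, and 783 to 1351 with each library left out. Week 1 against day 1 gave 2, and 4 by limma on percent, 0 on centred percent, 0 with only the groups compared, 0 with 5 reads, 5 with 20 reads, and 0 to 2 with each library left out. The cause was not tested. Of 405 recomputed values of day 1 minus NSC in named tiles, 21 moved by more than the replicate SD and 0 changed sign. Some settings, such as leaving out a week 1 library, cannot change that difference, and the tiles were chosen for large differences. These counts are thus fixed in part, and no stability is read from them. No paired analysis was possible because the labels give no replicate numbers.

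The limits are the depth of day 1 library 2, the 10 to 25 reads behind some library values, the 3 or 4 libraries per group in most tiles, and the choice of the tiles by the same libraries that describe them.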
